A study of Homo sapiens with 8 samples.

Results

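REST, the RE1-silencing transcription factor, and 6 of its corepressors were followed through m6A-seq of neuroblastoma cells. The 7 genes are REST, the CoREST scaffolds RCOR1, RCOR2 and RCOR3, the SIN3 scaffolds SIN3A and SIN3B, and the histone methyltransferase EHMT2, also called G9a. They were picked by name from the 56303 genes of the count table, and the rule itself uses no measured value. The choice was made with earlier results of these data known. The cells were SK-N-BE(2), an established human neuroblastoma line with MYCN amplification, in which METTL14 was knocked down by shRNA (shMETTL14) or left in place with a control hairpin (sh-NC). Both arms were lentiviral lines selected with puromycin, and both therefore carried the vector. Each arm had 2 cultures, and each culture gave an input library and an m6A immunoprecipitation (IP) library, which made 8 libraries in all. The labels do not say whether the shMETTL14 cultures carried the same shRNA, nor whether cultures of an arm were grown apart. The p-values cover no spread beyond that between these cultures. With 2 cultures per arm, edgeR estimates the spread of a gene with information shared across all genes, so small p-values rest in part on other genes. The input library is fragmented poly(A) RNA and reports RNA level. The IP library is the share of those fragments bound by an anti-m6A antibody.

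REST is a zinc finger repressor that binds a long DNA element, RE1, near many neuronal genes and keeps them silent outside neurons. Its N-terminal part recruits SIN3 with histone deacetylases, and its C-terminal part recruits CoREST, which holds the lysine demethylase KDM1A (LSD1) and the deacetylases HDAC1 and HDAC2. G9a adds repressive methyl groups to histone H3, and REST protein usually declines as neurons differentiate. METTL14 is the RNA-binding partner of METTL3 in the complex that writes m6A, a mark that tends to lie in long internal exons and around stop codons.

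Matches to the RE1 motif in the promoters of REST target genes are shown, because RE1 is the sequence through which REST, and the corepressors bound to it, reach genes. Binding of REST was not measured in these libraries. The RE1 motif searched has 21 letters, 19 of them defined, and these are the capitals of the GRIA2 site below. It was searched on both strands of RefSeq promoters of GRCh38.p14, from 250 bases before to 50 after each gene start. Of the 31 genes in a list of REST targets, 21 had a promoter to search. Capitals mark bases equal to the motif, and each site is written 5′ to 3′ along the motif.
GRIA2 (chr4:157220388-157220408, minus strand): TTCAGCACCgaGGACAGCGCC
SYN1 (chrX:47620070-47620090, minus strand): TTCAGCACCgcGGACAGtGCC
VGF (chr7:101165559-101165579, plus strand): TTCAGCACgctGGACAGCGCC
CELSR3 (chr3:48663014-48663034, minus strand): TTCAGCACCagGagCAaCGCt
The GRIA2 site matched at every defined letter, SYN1 and VGF differed at 1 letter each, and CELSR3 differed at 4. With at most 2 mismatches, a limit set after the shares were seen, the motif lay in 3 of the 34 promoters of target genes (8.82%) and in 17 of all 35116 promoters (0.0484%). No match was found in the 9 promoters of the 6 members that have one in the reference; RCOR2 had none to search.

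Total counts ran from 32027379 to 47205265 per library. METTL14 served as the check of the labels. Its input level was 49.5 and 48.7 CPM (counts scaled to library size) in the sh-NC cultures, and 13.7 and 14.6 CPM with shMETTL14, a log2 fold change of -1.79 ± 0.0663 (SE, edgeR adjusted p = 1.28e-15, n = 2 cultures per arm). Of 9 adrenergic neuroblastoma markers none was under 1 CPM, and their summed input level was 5568 to 5803 CPM in sh-NC and 5759 to 5847 CPM in shMETTL14. The summed level of each list of immune, endothelial, epithelial and Schwann markers was at most 5.62 CPM in any input library, and none of their genes was called. Fibroblast markers summed to 409 to 420 CPM in sh-NC and 417 to 418 CPM in shMETTL14. The fibroblast list did not move one way, with 3 of 5 genes called higher and 2 called lower in shMETTL14 input. Over all genes tested 11.7% were called higher and 12.3% lower. Among the 5, DCN changed by 1.32 and COL1A1 by -0.67 on the log2 scale. The part of such cells or states in the results below was not tested, and in bulk RNA fewer cells of a type and less RNA per cell cannot be told apart.

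Levels of different genes were set side by side as CPM per kilobase of merged exon. This length covers the exons of all listed isoforms, and it understates a gene whose long exons are rarely used. In sh-NC input RCOR2 was the highest of the 7 at 16.6 ± 0.196 (SD, n = 2), followed by EHMT2 at 14.6 ± 0.334 and SIN3A at 10.0 ± 0.0388. RCOR1 stood at 7.76 ± 0.236, SIN3B at 6.71 ± 0.0804 and RCOR3 at 4.05 ± 0.0261. REST itself was the lowest of the 7 at 3.39 ± 0.0872 CPM per kilobase. Even so it lay above the median of the 22245 genes tested (2.86), at the 53.7th percentile, and RCOR2 lay at the 86.7th. In shMETTL14 the order was RCOR2 (23.3), EHMT2 (16.2), SIN3A (12.1), SIN3B (8.23), RCOR1 (6.91), RCOR3 (3.58) and REST (2.83), so that RCOR1 and SIN3B exchanged places. In each arm the cultures of neighbours in the order did not overlap.

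**Figure D1:**
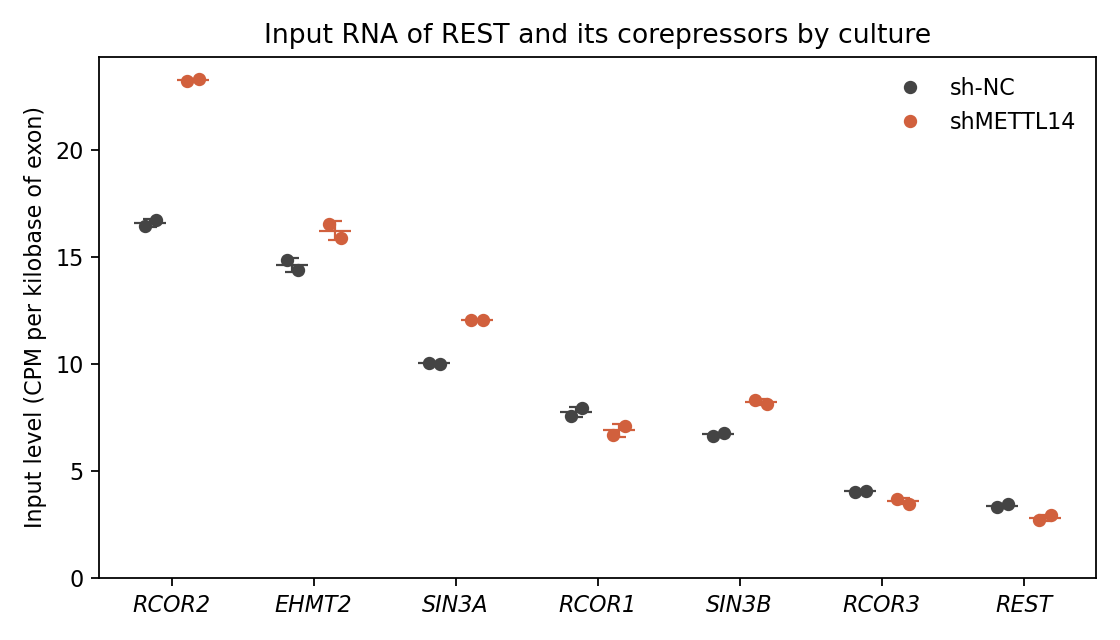
Input RNA of the 7 genes in CPM per kilobase of merged exon (vertical axis, from 0). Points are cultures, horizontal marks with bars are the mean and SD of 2 cultures, grey is sh-NC and orange is shMETTL14. RCOR2 is the highest in both arms and REST the lowest.

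All 7 genes passed the test for a change of input RNA after METTL14 knockdown, where 24% of the 22245 genes tested did. That share takes in genes of all levels, many with few counts, and was not matched to the members. All 7 lay above the median input level of the genes tested, from the 53.7th to the 86.7th percentile. RCOR2, SIN3A, SIN3B and EHMT2 rose (11.7% of all genes did), and REST, RCOR1 and RCOR3 fell (12.3% of all genes did). Each of these changes was small, from -0.25 to 0.50 on the log2 scale, and the median of all genes was 0.002. The rises of RCOR2, SIN3A and SIN3B passed under all alternative settings that asked for no minimum fold. The 3 falls and the rise of EHMT2 did not, as given with each gene.

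REST lies at chr4:56907876-56935844 on the plus strand of GRCh38. Its input level was 26.4 and 27.4 CPM in sh-NC against 21.7 and 23.3 CPM in shMETTL14, from 946 to 990 counts per sh-NC library. Both shMETTL14 cultures were below both controls, and the gap between the arms was wider than the spread within either. The log2 fold change was -0.25 ± 0.0699 (SE, edgeR adjusted p = 0.00902, n = 2). Without shMETTL14 culture 1 the change was -0.20 (adjusted p = 0.170), without culture 2 it was -0.31 (adjusted p = 0.0840), and with no filter on low counts the adjusted p was 0.110.

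The CoREST paralogs moved in opposite directions. These proteins share the domains that bind KDM1A and HDAC1 or HDAC2, and RCOR2 is the family member best known from stem cells and neural progenitors. RCOR2 (chr11:63911221-63916844, minus strand) was at 45.0 and 45.8 CPM in sh-NC against 63.6 and 63.8 CPM in shMETTL14. The arms were far apart against cultures that differed by under 1 CPM, and RCOR2 rose by 0.50 ± 0.0498 (SE) on the log2 scale, or 1.41-fold (edgeR adjusted p = 4.85e-08, n = 2). No setting raised its adjusted p above 0.0102.

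RCOR1 (chr14:102592661-102730576, plus strand), the founding CoREST gene, was at 47.1 and 49.1 CPM in sh-NC against 41.6 and 44.2 CPM in shMETTL14. RCOR3 (chr1:211258377-211316385, plus strand) was at 36.7 and 37.0 CPM in sh-NC against 33.5 and 31.7 CPM in shMETTL14. In both genes the shMETTL14 cultures lay below the controls, without overlap. RCOR1 fell by 0.16 ± 0.0552 (SE, log2, edgeR adjusted p = 0.0364, n = 2) and RCOR3 fell by 0.17 ± 0.0604 (adjusted p = 0.0422). Both calls rested near the threshold. With no filter on low counts neither was called (edgeR adjusted p = 0.216 for RCOR1 and 0.182 for RCOR3), and with library sizes alone RCOR3 was not called (0.0539). RCOR1 was not called without shMETTL14 culture 1 (adjusted p = 0.343), without culture 2 (0.133) or without sh-NC culture 2 (0.163), RCOR3 was not called with any one culture left out (0.101 to 0.311), and DESeq2 called neither (0.133 and 0.154).

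Taken per kilobase, RCOR2 made up 58.6% and 58.2% of the summed CoREST RNA of the control cultures and 69.1% and 68.8% of that of the knockdown cultures. RCOR1 went from 27.0% and 27.6% to 19.9% and 21.0%, and RCOR3 from 14.4% and 14.2% to 11.0% and 10.3%. The arms did not overlap for any of the 3, and the mean share of RCOR2 was 58.4% ± 0.255 (SD, n = 2) against 68.9% ± 0.255. The 3 shares are parts of the same sum, so the rise of RCOR2 by itself lowers those of RCOR1 and RCOR3. With 2 cultures against 2, an exact permutation test cannot reach a p below 0.333, and none is given.

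SIN3A and SIN3B are the paired scaffolds that seat HDAC1, HDAC2 and a set of chromatin-binding subunits. SIN3A (chr15:75369379-75455842, minus strand) was at 125.3 and 124.6 CPM in sh-NC against 150.2 and 150.0 CPM in shMETTL14. SIN3B (chr19:16829400-16880353, plus strand) was at 58.4 and 59.4 CPM in sh-NC against 73.2 and 71.3 CPM in shMETTL14. Both genes were higher in both shMETTL14 cultures, with cultures of an arm within about 2 CPM of each other. SIN3A rose by 0.27 ± 0.0381 (SE, log2, edgeR adjusted p = 7.44e-06, n = 2) and SIN3B by 0.30 ± 0.0471 (adjusted p = 3.26e-05). The share of SIN3A in the summed SIN3 RNA per kilobase was 59.9% ± 0.375 (SD) in sh-NC and 59.4% ± 0.431 in shMETTL14, and here the cultures of the arms overlapped.

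EHMT2 (chr6:31879759-31897687, minus strand) was at 108.3 and 104.9 CPM in sh-NC against 120.6 and 115.9 CPM in shMETTL14. The arms did not overlap, and EHMT2 rose by 0.16 ± 0.0413 (SE, log2, edgeR adjusted p = 0.00643, n = 2). The call was lost without shMETTL14 culture 1 (adjusted p = 0.166), without culture 2 (0.0884) and with no filter on low counts (0.0719). EHMT2 shares 74 exonic bases with EHMT2-AS1 on the opposite strand and SIN3A shares 206 with RP11-817O13.8. The counts of the overlapping genes were at most 3.35% and 2.33% of those of EHMT2 and SIN3A, and no other member shared exonic bases with another gene of the table.

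**Figure D2:**
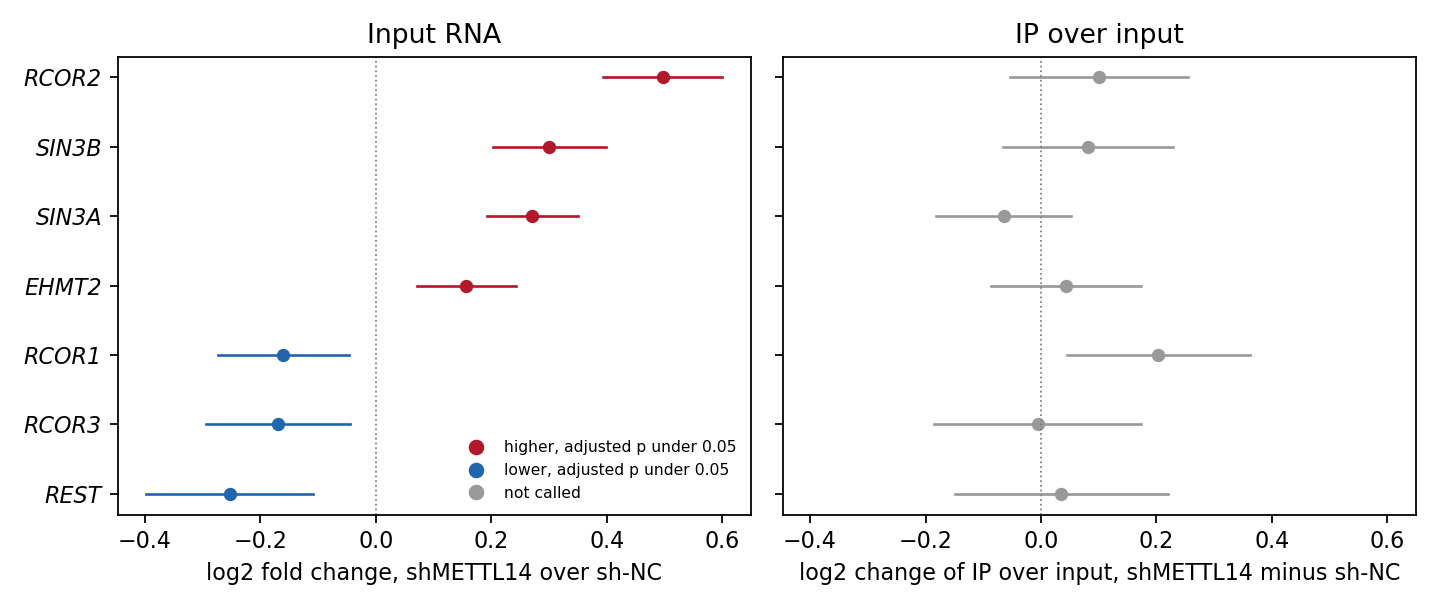
Changes of the 7 genes with METTL14 knockdown. The left panel gives the log2 fold change of input RNA and the right panel the log2 change of IP over input, as points with 95% confidence intervals, red for higher, blue for lower and grey for not called at an adjusted p of 0.05. Of the 7 genes, 4 are red and 3 blue on the left, and all 7 are grey on the right.

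The IP libraries gave the m6A side of the same genes. The ratio of IP to input CPM in a culture is a gene-wide measure of antibody enrichment, relative to the average gene of the libraries, and it is no count of m6A sites. In sh-NC, 58.9% of the 22953 genes tested differed between IP and input, 29.1% higher and 29.8% lower in IP. Of the 7 members 2 were higher in IP, 3 were lower and 2 were not called. With library sizes alone as the scale, the split over all genes was 5358 higher and 8250 lower in place of 6689 and 6833, and the median of all genes moved from -0.01 to -0.14.

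REST was the most enriched of the 7. Its IP level was 43.3 and 46.3 CPM in sh-NC against 38.7 and 37.9 CPM in shMETTL14. The ratio of IP to input was 1.64 and 1.69 for the control cultures against 1.78 and 1.63 for the knockdown cultures. All 4 ratios were above 1 and the arms overlapped. The log2 IP over input in sh-NC was 0.73 ± 0.0638 (SE, edgeR adjusted p = 1.99e-14, n = 2), at the 86.9th percentile of all genes, and in shMETTL14 it was 0.77 ± 0.0656 (adjusted p = 1.10e-14).

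SIN3A followed, with ratios of 1.191 and 1.274 in sh-NC, against 1.185 and 1.169 in shMETTL14, without overlap. Its log2 IP over input was 0.30 ± 0.0414 (SE) in sh-NC and 0.23 ± 0.0406 in shMETTL14 (edgeR adjusted p = 1.34e-08 and 1.87e-06). Its partner SIN3B lay on the other side of 1, at 0.756 and 0.779 in sh-NC, against 0.774 and 0.847 in shMETTL14. The log2 values of SIN3B were -0.38 ± 0.0527 and -0.30 ± 0.0507 (adjusted p = 1.13e-08 and 9.85e-07).

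EHMT2 had the lowest ratios of the 7, at 0.673 and 0.700 in sh-NC, against 0.670 and 0.746 in shMETTL14, or a log2 IP over input of -0.54 ± 0.0460 (SE) and -0.50 ± 0.0454 (edgeR adjusted p = 7.35e-15 and 8.12e-14). All 4 EHMT2 ratios were below every ratio of the other 6 genes. RCOR3 was just below 1 in every culture, at 0.897 and 0.877 in sh-NC, against 0.873 and 0.896 in shMETTL14. Its log2 values of -0.17 ± 0.0624 and -0.18 ± 0.0640 passed the test in both arms (adjusted p = 0.0154 and 0.0149), though not when a culture of the arm was left out (0.0949 to 0.188).

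RCOR1 and RCOR2 had IP close to input. The RCOR1 ratios were 1.06 and 0.969 in sh-NC, against 1.23 and 1.11 in shMETTL14, and the RCOR2 ratios were 0.976 and 0.896 in sh-NC, against 1.05 and 0.961 in shMETTL14. RCOR1 was not called in sh-NC (log2 0.02 ± 0.0555, SE) and was higher in IP in shMETTL14 (0.22 ± 0.0559, edgeR adjusted p = 0.000621), a call that was lost without shMETTL14 culture 1 (0.154) and with library sizes alone (0.134). RCOR2 was called in neither arm (-0.09 ± 0.0560 and 0.01 ± 0.0525), but with library sizes alone it was lower in IP in sh-NC (-0.22, adjusted p = 0.000952). In shMETTL14, 58% of all genes differed between IP and input, 28.9% higher and 29.1% lower in IP, and of the members 3 were higher, 3 were lower and 1 was not called.

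**Figure D3:**
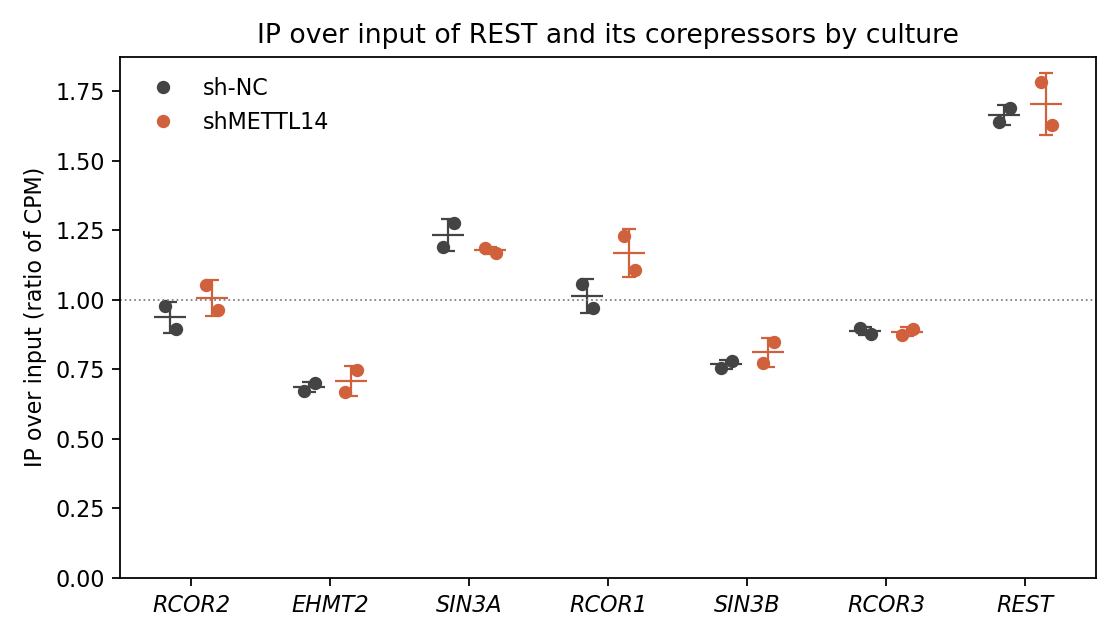
Ratio of IP to input CPM per culture (vertical axis, from 0) for the 7 genes, with points for cultures, marks and bars for the mean and SD of 2 cultures, grey for sh-NC and orange for shMETTL14. The dotted line is a ratio of 1. REST is highest and EHMT2 lowest in both arms, and the cultures of the arms overlap for 5 of the 7 genes, all but RCOR1 and SIN3A.

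No member passed the test for a difference in IP over input between arms. Over all 22953 genes 1 was called (0.00436%), and 6.34% had an unadjusted p under 0.05. The largest member value was that of RCOR1, a log2 change of 0.20 with a 95% interval of 0.0449 to 0.362 (unadjusted p = 0.0129, edgeR adjusted p = 0.679, n = 2), the only unadjusted p under 0.05 among the 7. DESeq2 also called none of the 7. For REST the change was 0.04 with an interval of -0.149 to 0.219, for EHMT2 0.04 (-0.0861 to 0.174) and for RCOR3 -0.01 (-0.186 to 0.174). For RCOR2 it was 0.10 (-0.0542 to 0.254), for SIN3B 0.08 (-0.0657 to 0.229) and for SIN3A -0.06 (-0.181 to 0.0519). Every interval other than that of RCOR1 spanned 0, and the highest bound, that of RCOR1, was 0.362. IP levels scaled to library totals cannot show a change of m6A shared by all transcripts.

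The 7 genes differ in exon structure. REST had its longest merged exon at 6004 bases, or 75.5% of the exonic length. The longest merged exons of RCOR1, SIN3A and RCOR3 were 4109, 3614 and 2962 bases, and those of SIN3B, EHMT2 and RCOR2 were 1857, 1547 and 1314 bases. Across the 7 genes the Spearman correlation of this length with log2 IP over input in sh-NC was 0.75, and across all 22953 genes it was 0.179. Both are descriptions across genes of the same libraries, and genes are not independent replicates. Over all genes the median log2 IP over input rose from -0.24 where the longest exon was under 500 bases to 0.16 where it was 4000 bases or more. REST, at 0.73, lay above the upper quartile of its class (0.51), and EHMT2, at -0.54, lay below the lower quartile of its class (-0.48).

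**Figure D4:**
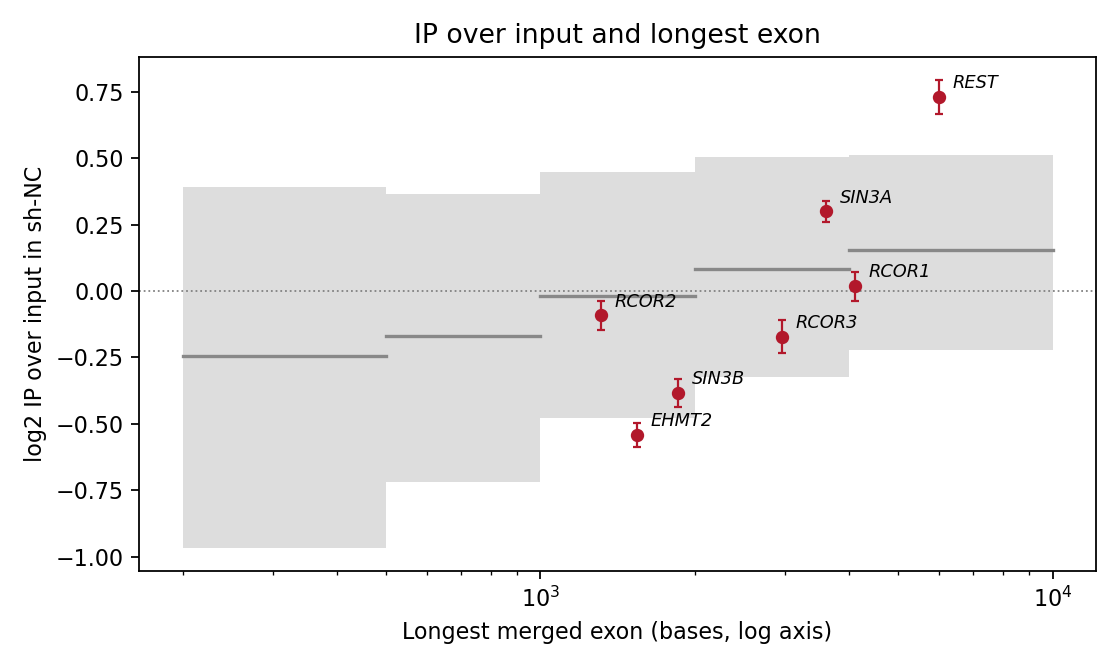
Longest merged exon (horizontal axis, bases, log scale) against log2 IP over input in sh-NC (vertical axis). Grey bands and lines are the quartiles and median of all genes tested in 5 length classes, drawn from 200 to 10000 bases for display, and red points are the 7 genes with their SE. REST lies above the band of its class, EHMT2 below, and the other 5 within.

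The genes whose log2 CPM followed REST most closely over the 8 libraries, among 10493 genes with a mean of at least 10 CPM, were GTF2H1 (Pearson r = 0.9985), MFAP3L (0.9974), FAM105A (0.997), CLEC16A (0.9965) and ENDOD1 (0.9963). The likeness takes in the step from input to IP, which all libraries of a type share. Among the members RCOR1 had the highest r with REST (0.746), followed by SIN3A (0.515), RCOR2 (-0.377), RCOR3 (-0.443) and SIN3B (-0.881). RCOR1 held rank 3733 and SIN3A rank 4600 of the 10493 genes, so many genes followed REST more closely than any member did. EHMT2 was close to the mirror image of REST (r = -0.993), being lower in IP and higher in shMETTL14.

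The enzymes that work with CoREST moved less than RCOR2 did. Of 12 partners of the KDM1A and CoREST complex, 5 rose and 2 fell in input RNA, with a median of 0.09 on the log2 scale, where 11.7% of all genes tested rose and 12.3% fell. KDM1A, the demethylase itself, went from 344.6 and 335.2 CPM in sh-NC to 373.3 and 371.3 CPM in shMETTL14, a rise of 0.14 ± 0.0327 (SE, edgeR adjusted p = 0.00267). HDAC2 rose by 0.12 ± 0.0331 (adjusted p = 0.00737), and HDAC1 was not called at 0.05 ± 0.0480 (0.534). GSE1, which copurifies with the complex, had the largest rise of the list at 0.39 ± 0.0321 (1.65e-09), and PHF21A, the reader of unmethylated histone H3, and the zinc finger gene ZMYM2 rose by 0.19 and 0.15. The corepressor CTBP2 fell by 0.16 ± 0.0379 (0.00348). GSE1 kept its call under all alternatives with no minimum fold, and each other named call of the list was lost under at least 1 (adjusted p up to 0.102 for KDM1A and 0.178 for HDAC2).

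Among 16 SIN3 partners, 3 rose and 6 fell, with a median of 0.003 on the log2 scale, beside 11.7% and 12.3% of all genes. BRMS1L, a core subunit of the deacetylase complex, fell the most, from 30.5 and 29.0 CPM to 18.4 and 18.8 CPM, or by 0.67 ± 0.0700 (SE, log2, edgeR adjusted p = 8.91e-08). The histone chaperones RBBP7 and RBBP4 fell by 0.32 and by 0.20, and SUDS3, which bridges SIN3 and the deacetylases, fell by 0.25. PHF12, BRMS1 and SAP30 rose by 0.17, 0.15 and 0.14. SIN3A and SIN3B rose in the same libraries in which 6 of their partners fell. The calls of BRMS1L and RBBP7 were kept under all alternatives with no minimum fold, and those of SUDS3, RBBP4, PHF12, BRMS1 and SAP30 were not (adjusted p up to 0.0541, 0.0706, 0.280, 0.191 and 0.160).

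Of 7 partners of G9a and HP1 genes, 2 rose and 1 fell, where 11.7% of all genes rose and 12.3% fell, and counts this small say little about the list. EHMT1, which forms the heterodimer with EHMT2, rose by 0.14 ± 0.0397 (SE, log2, edgeR adjusted p = 0.0136). The HP1 genes, whose proteins bind methylated histone H3, parted: CBX1 rose by 0.41 ± 0.0342 (2.10e-09), CBX5 fell by 0.38 ± 0.0331 (4.02e-09) and CBX3 was not called at -0.05. The EHMT1 rise was lost under some alternatives (adjusted p up to 0.313), and those of CBX1 and CBX5 were kept under all that asked for no minimum fold.

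Of 9 regulators of REST, 1 rose and 1 fell, a share close to the 24% of all genes called in either direction, so that the count is no result about the list. SRRM4, a neuronal splicing factor that promotes a shortened REST isoform and is itself repressed by REST, was at 15.6 and 16.5 CPM in sh-NC against 26.1 and 25.03 CPM in shMETTL14. The arms were well apart, and SRRM4 rose by 0.68 ± 0.0754 (SE, log2), or 1.60-fold (edgeR adjusted p = 2.39e-07, n = 2). CTDSP2, one of the small C-terminal domain phosphatases recruited by REST, fell by 0.31 ± 0.0429 (7.60e-06). BTRC, which marks REST for degradation, and the deubiquitinase USP7 were not called (0.10 and -0.002). The counts are per gene, and REST isoforms were not resolved.

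REST target genes were taken as a list of 31 neuronal and endocrine genes known for RE1 elements, of which 26 had enough counts to be tested. In input RNA 14 of the 26 rose, where 11.7% of all genes did, 3 fell, a share close to the 12.3% of all genes, and 9 were not called. The targets had a median log2 fold change of 0.26 against 0.002 over all 22245 genes. The list was written with earlier results of these data known, so these counts and this median describe it and test nothing. The rises were 9 without shMETTL14 culture 2 and 11 without culture 1, and no fall was called in either case; without sh-NC culture 1 there were 12 rises and 1 fall, and without sh-NC culture 2 there were 14 and 4. The largest rise was that of STMN2, a tubulin-binding protein of growth cones, from 371.4 and 364.3 CPM in sh-NC to 805.3 and 809.2 CPM in shMETTL14, a 2.21-fold change (log2 1.14 ± 0.0310, SE, edgeR adjusted p = 3.36e-18). GRIN1, an NMDA receptor subunit, rose by 0.80 ± 0.0829 (8.91e-08), from 12.0 and 11.9 CPM to 21.0 and 20.3 CPM. TUBB3, the neuronal tubulin, rose by 0.59 ± 0.0312 (6.89e-13), and the AMPA receptor gene GRIA2 rose by 0.60 ± 0.142 (0.00273) at only 4.08 to 7.47 CPM. Of these genes only GRIA2 had a motif match. STMN2 and GRIN1 had no promoter to search, and TUBB3 had no match at up to 4 mismatches.

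Not all targets moved up. BDNF, a neurotrophin, fell by 0.46 ± 0.138 (SE, log2, edgeR adjusted p = 0.0158), the neuropeptide precursor VGF fell by 0.13 ± 0.0328 (0.00466), and CHRM4, a muscarinic receptor at 0.424 to 1.19 CPM that the naming rule leaves out and that was named after its value was seen, fell by 1.06 ± 0.381 (0.0446). The calls of BDNF, VGF and GRIA2 were lost under some alternatives (adjusted p up to 0.162, 0.109 and 0.110), and those of STMN2, GRIN1 and TUBB3 under none that asked for no minimum fold. Among the 3 genes with a printed match of at most 2 mismatches, GRIA2 rose, VGF fell, and SYN1 was not called (0.16 ± 0.0930). CELSR3, whose printed stretch has 4 mismatches and lies past that limit, rose by 0.22 ± 0.0543. Over all genes with the motif at up to 2 mismatches, 10 were tested, of which 4 rose and 3 fell, with a median of 0.11. At up to 4 mismatches 56 were tested, 13 rose and 14 fell, with a median of -0.01, beside 11.7% and 12.3% of all genes.

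**Figure D5:**
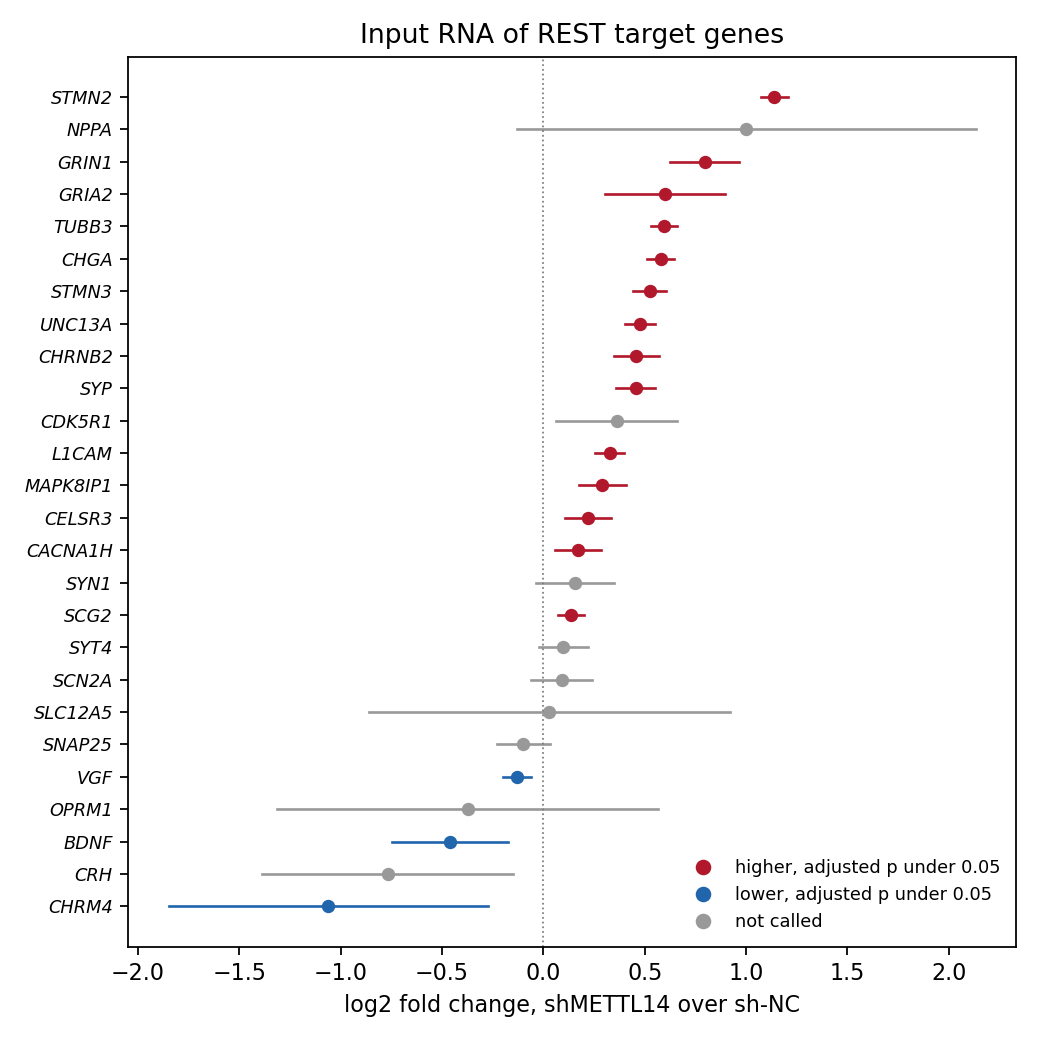
Log2 fold change of input RNA, shMETTL14 over sh-NC, for the 26 tested REST target genes, as points with 95% confidence intervals, red for higher, blue for lower and grey for not called at an adjusted p of 0.05. The points in red are 14 and those in blue 3, with STMN2 at the top at 1.14.

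Markers of the adrenergic neuroblastoma state moved in the same libraries as the target genes. Of the 9 markers 6 rose and none fell, where 11.7% of all genes rose and 12.3% fell, with a median of 0.29, including the catecholamine enzymes TH (1.03 ± 0.0546, SE, log2, edgeR adjusted p = 7.94e-13) and DBH (0.84 ± 0.176, 0.000868), while MYCN was not called (-0.01). TH and DBH are no members of the target list, and the part of a shift in cell state in the target gene values was not tested. For the change of IP over input edgeR called none of the 26 target genes, 9 regulators or 12, 16 and 7 complex partners. An unadjusted p under 0.05 was found for 3 of the target genes, 1 regulator and 0 partners, against 6.34% of all genes.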

How the data were processed

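MeRIP-seq (m6A IP and input) of SK-N-BE(2) cells was deposited by the authors as raw counts per gene for 8 libraries, with merged exon lengths. Per the labels, reads were trimmed with Trimmomatic 0.36 and the build was GRCh38; the aligner, the counter, its strand setting and the handling of molecular identifiers are not given in the sources used here, so antisense reads may be counted for a gene. Tests were run with edgeR 4.0.16 under R 4.3.3 (filterByExpr, TMM, glmQLFit, glmQLFTest, Benjamini-Hochberg at 0.05). The input comparison used the 4 input libraries; IP over input and its change used 1 model of 8 libraries with 4 group means. CPM carry TMM factors of the 8 libraries, with a prior count of 2 for the correlation with REST. SE is the absolute log2 change over the square root of F. Depth gave 946 or more counts for each member per input library in sh-NC. Molecules may have been counted more than once.

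The members, lists and tests were chosen with earlier results of these data known. Named were the members, METTL14, KDM1A, HDAC1, HDAC2, EHMT1, SRRM4 and, per list, up to 4 called rises and 4 called falls whose mean was at least 50 counts and whose sign was equal in both same-numbered pairs; BTRC, USP7, CBX3, SYN1, CELSR3, CHRM4 and markers were added to fill counts or sites. Lists matched 108 of 108 symbols, 1 by an older symbol. One gene that the rule names is not reported here. Alternatives were DESeq2 1.42.0, RLE or library-size scaling, other filters, a minimum fold, a replicate block and leaving out each culture; the code was tested on simulated data. Deviations of IP and input of the same culture from their group means had a correlation of 0.004 (sh-NC) and 5.60e-05 (shMETTL14), and those of same-numbered sh-NC and shMETTL14 inputs one of -0.01. Replicates differed by more than sampling noise (chi-square per gene 2.43 to 3.99).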

Additional observations from a re-analysis of the deposited data

How the results depend on the processing

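With 2 cultures per arm, precision is set by the spread between cultures more than by depth; the input falls of REST, RCOR1 and RCOR3 and the rise of EHMT2 kept their direction under every alternative run but not their call. With 1 culture left out, 656 to 2366 genes were higher and 925 to 2590 lower in input, 0 to 2 members and 0 to 4 target genes were lower and 9 to 14 target genes higher, 0 to 116 genes had a lower and 0 to 9 a higher change of IP over input; the lone culture of an arm is then assumed to vary like the other arm. DESeq2 left 1 member and 1 target gene lower in input and 0 genes with a lower change of IP over input (RLE factors 2, at least 10 counts 3). With no filter 1082 genes were higher and 1072 lower in input, with 0 members and 0 target genes lower, and the change of IP over input was higher for 1 gene and lower for 12. At an absolute log2 of at least 1, input kept 180 genes higher and 178 lower, 0 members in either direction, and 1 target gene each way; IP over input kept 1103 genes higher and 2105 lower in sh-NC, 1010 higher and 1961 lower in shMETTL14, and 0 members, and its change 0 genes.

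With the replicate block, 2744 genes were higher and 2849 lower in input and 0 and 1 for the change of IP over input, and no member's call changed; the numbers did not pair the samples by their deviations. Values near 0 changed sign. IP over input of RCOR1 in sh-NC was -0.11 with library sizes alone and -0.008919 with at least 10 counts, that of HDAC1 was -0.00158, and that of RCOR2 in shMETTL14 was -0.11 and -0.02322. With 1 culture left out, RCOR1 in sh-NC ran from -0.03217 to 0.08252 and RCOR2 in shMETTL14 from -0.05389 to 0.07679. For RCOR3 the change between arms was 0.001927 with library sizes alone and, with 1 culture left out, ran from -0.02468 to 0.01157; it ran for REST from -0.0334 to 0.1013, for EHMT2 from -0.0367 to 0.1182 and for METTL14 from -0.002608 to 0.188. The cause was not tested.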
